A study of Mus musculus with 3 samples.

Results

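The cells of the renal medulla at day 84 after reversible unilateral ureteric obstruction (R-UUO) were compared with those at day 28, taking every cell of both time points in the deposited cell annotation. These were 102626 of the 181257 annotated cells, 59132 from 4 pools at day 28 and 43494 from 2 pools at day 84. The animals were male BALB/c mice whose left ureter was clamped at 12 to 13 weeks of age. The clamp was released after 5 to 7 days, an interval given as depending on the strain. For the long-term follow-up of BALB/c mice the study describes 7 days, and it does not restate the interval for the sequenced pools. The long-term protocol removed the other kidney at day 10. The 12 mice of day 28 and the 6 mice of day 84 went through this same injury, and a pool held the frozen medullas of 3 to 4 mice, which the labels call kidney papilla. The 4 pools of healthy controls, from 12 mice, took no part in the comparison, and their ranges are given as background. Cells were fixed and measured with gene probes, and a tag on the probes marked the pool. Each cell came with its corrected number of unique molecular identifiers (UMIs, here the RNA molecules counted per cell), its number of detected genes, its pool, its cell type and its cluster. The annotation had 7 cell types and 25 clusters. Expression of single genes was not analysed here, so the cluster names were taken as deposited and were not checked against marker genes.

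The renal medulla carries the loops of Henle (LOH) and the collecting ducts (CD) through an outer zone, with an outer and an inner stripe, into the inner zone that ends in the papilla. Its gradient of salt and urea, which lets the collecting duct draw water from the urine, is built by the thick and thin limbs of the loop and kept by the vasa recta, the straight vessels that run beside them. After obstruction, tubular epithelium can be lost, can persist in an injured state or can be replaced, and myofibroblasts, the matrix-producing cells of scar, come up in the interstitium.

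The day 28 pools held between 13013 and 16521 cells and the day 84 pools 19765 and 23729. Median UMIs per cell were 3302, 2209, 1853 and 1566 in day 28 pools 1 to 4 and 911 and 751 in day 84 pools 1 and 2, which was 2.59-fold lower at day 84 with no overlap (2232 ± 760, SD, n = 4, against 831 ± 113, SD, n = 2; two-sided exact permutation test, p = 0.0667, the smallest that 4 pools against 2 can give). Cells with fewer than 500 detected genes made up 1.30% to 5.22% of the day 28 pools, and 15.9% and 29.8% of the day 84 pools. Counted against the smaller pool of a pair, shared droplet barcodes came to a median of 22.4% among the day 28 pools, 27.2% between the day 84 pools and 2.87% across times. Pools of 1 time thus appeared to have gone through a droplet run of their own, so that run and time cannot be told apart, and the spread between pools does not hold the variation between runs. Cells without a mitochondrial UMI made up 34.6% to 74.3% of the day 28 pools and 59.9% and 96.7% of the day 84 pools. In the healthy control pools they made up 0.0164% to 1.18%. Whether a technical difference bears on the control ranges was not tested. Among the day 28 and day 84 pools, day 28 pool 4 stood apart. The mean absolute difference of its log2 odds over the 25 clusters was 1.26 to the other day 28 pools. The others had 0.70 to 0.82 among the day 28 pools. From day 28 pool 4 it was 0.93 to day 84 pool 1 and 1.36 to day 84 pool 2, the latter the largest between times. Differences between times averaged 1.07 and ranged from 0.84 to 1.36, and those among day 28 pools from 0.35 to 1.42, so the 2 ranges overlapped.

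Collecting duct cells were the cell type that differed between the times. The deposited CD type holds the principal cell clusters, an injured CD cluster and the urothelium of the papilla, while intercalated cells are a type of their own. CD cells made up 17.0%, 14.8%, 20.5% and 18.1% of all cells in the day 28 pools and 32.1% and 29.8% in the day 84 pools. Both day 84 pools lay above all 4 day 28 pools and within the range of the control pools, 27.2% to 34.8%. The makeup of the type did not match the controls. Of CD cells, the inner medullary clusters deepIM-CD and IM-CD together were 23.7% and 35.2% at day 84, against 57.9% to 67.0% in control pools. The urothelium was 22.3% and 18.2%, against at most 5.62%, and the injured CD cluster 18.5% and 12.3%, against at most 0.269%. CD cells rose from 17.6% ± 2.37 (SD, n = 4) to 31.0% ± 1.68 (SD, n = 2), by 1.08 in log2 odds (standard error 0.196, 95% interval 0.59 to 1.57, limma with Benjamini-Hochberg adjustment over 7 cell types, adjusted p = 0.0155; two-sided exact permutation p = 0.0667). This was 1 of 7 cell types called (14.3%). Without proximal tubule cells in the denominator, whose share also differed widely between pools, the rise was 0.91 (limma adjusted p = 0.0199). Among cells with at least 500 detected genes it was 1.26 (limma adjusted p = 0.0156). That floor removed a larger part of the day 84 pools, and how far this bears on the 1.26 was not tested. The call was lost without day 28 pool 1 (1.06, limma adjusted p = 0.0574), without day 84 pool 1 (1.00, adjusted p = 0.160) and without day 84 pool 2 (1.16, adjusted p = 0.0956).

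The other 6 cell types did not pass the threshold. LOH cells, the largest type, were 36.6% to 40.8% of the day 28 pools and 37.3% and 39.7% of the day 84 pools, a difference of 0.01 in log2 odds (95% interval -0.34 to 0.37, limma adjusted p = 0.925). Endothelial cells (Endo) were 10.2%, 10.9%, 12.2% and 11.1% of the day 28 pools and 9.94% and 9.31% of the day 84 pools. The latter were the lowest of the 6, which with CD made 2 of 7 cell types whose pools did not overlap (28.6%), but the difference of -0.22 did not pass (95% interval -0.58 to 0.13, limma adjusted p = 0.509). Proximal tubule (PT) cells, of which the straight end segment reaches the outer medulla, were 22.8%, 21.2%, 13% and 2.95% at day 28 and 3.60% and 7.64% at day 84. Day 28 pool 4 was the lowest of the 6 for this type. The PT difference was -1.31 (limma adjusted p = 0.509) and -2.03 without day 28 pool 4 (limma adjusted p = 0.0219). The share of the fibroblast lineage (Fib), 6.53% to 20.3% at day 28, was 11.9% and 8.74% at day 84. Immune cells, at 2.37% to 5.77% at day 28 and 2.96% and 1.83% at day 84, lay above the highest control pool, 0.288%, in all 6 pools. Intercalated cells (IC), the acid-base cells of the collecting duct, were 1.01% to 2.54% at day 28 and 2.06% and 3.05% at day 84.

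**Figure D1:**
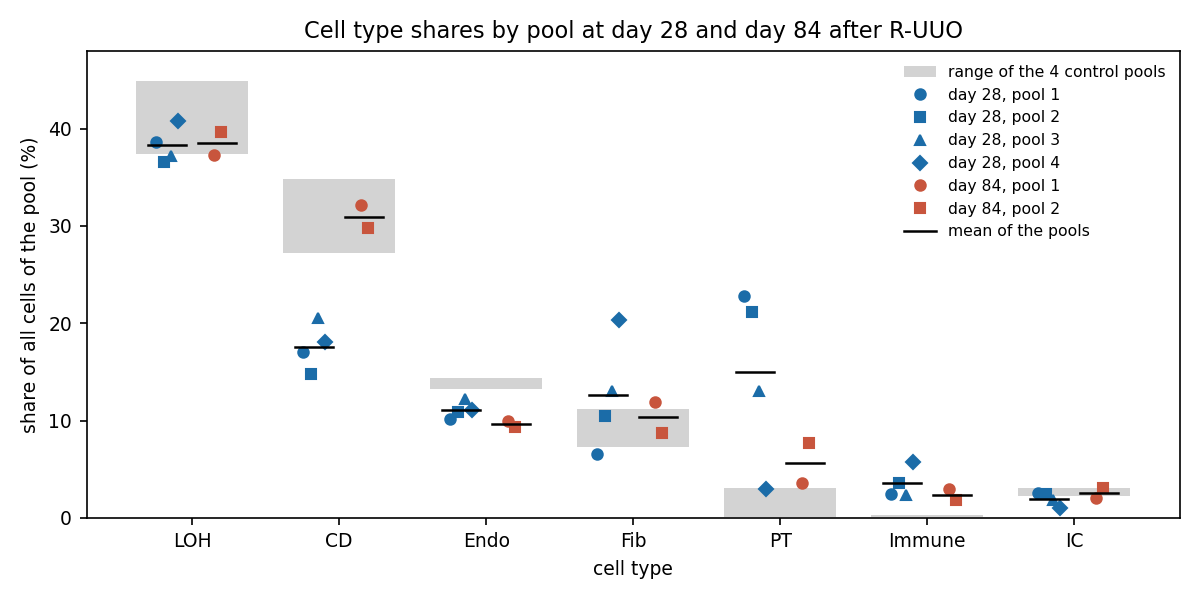
The share of all cells of the pool, in percent, is plotted for the 7 cell types, with 1 symbol per pool for day 28 (blue) and day 84 (red), a black line at the mean of the pools and a grey band over the range of the 4 control pools. CD cells sit between 14.8% and 20.5% in the day 28 pools and at 32.1% and 29.8% in the day 84 pools, and PT cells range from 2.95% to 22.8% among the day 28 pools.

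Over the 25 clusters, 15 had a higher and 10 a lower mean log2 odds of their share of all cells at day 84, with a median difference of 0.44. With limma, 0 of 25 clusters passed an adjusted p of 0.05 (0%) and 7 had an unadjusted p under 0.05 (28.0%). edgeR's quasi-likelihood test on the numbers of cells called 4 clusters, namely OSOM-TAL_a, OM-CD_a, Uro and Endo_a, each at an adjusted p of 0.0359, and with TMM scaling of the numbers it called 0 (0.0564 to 0.0604 for these 4). In 8 of 25 clusters the pools of the times did not overlap (32.0%), 6 of them higher (24.0%) and 2 lower (8%) at day 84. A share can also move when other cells become more or less numerous, so each cluster is given below also as a share of its own cell type. There, limma called 0 of 23 clusters (0%), with 7 at an unadjusted p under 0.05 (30.4%), 4 of them lower at day 84 (17.4%), and edgeR called 1, OSOM-TAL_a. In 8 of 23 the pools did not overlap (34.8%), 5 of them lower (21.7%).

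**Figure D2:**
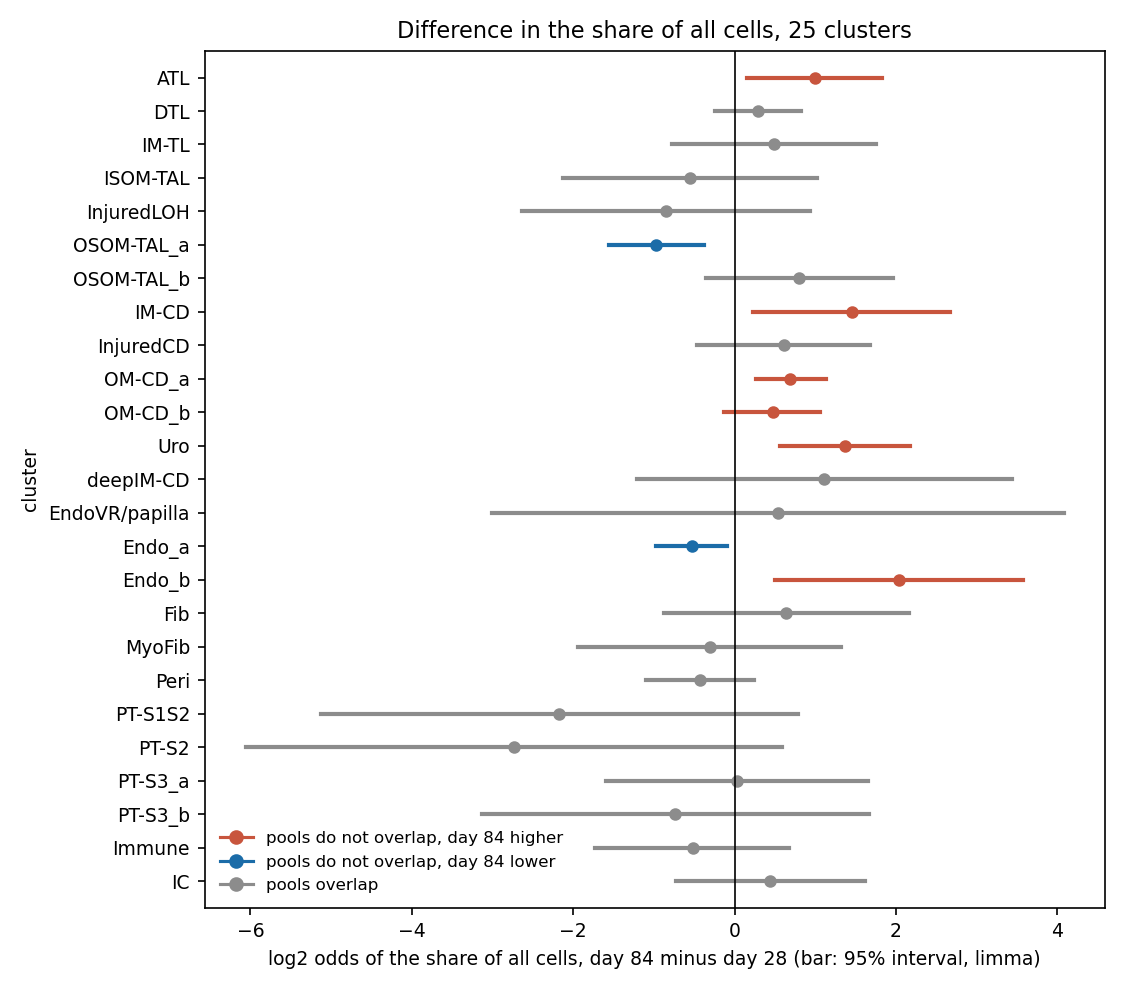
The difference in log2 odds of the share of all cells, day 84 minus day 28, is plotted for the 25 clusters, with a bar for the 95% interval from limma, red or blue where the 4 day 28 pools and the 2 day 84 pools do not overlap. The differences run from -2.73 for PT-S2 to 2.04 for Endo_b, and the intervals are widest for EndoVR/papilla, PT-S2 and PT-S1S2.

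Each of the 6 CD clusters had a higher mean share of all cells at day 84. The urothelial cluster Uro, which lines the papilla toward the renal pelvis, made up 2.54%, 1.86%, 2.40% and 3.49% of all cells at day 28 and 7.16% and 5.42% at day 84. Both day 84 pools were above all day 28 pools, and above the highest control pool, 1.94%. The difference was 1.37 in log2 odds (standard error 0.319, 95% interval 0.56 to 2.17, limma adjusted p = 0.0709). Without day 28 pool 4 it was 1.53 (limma adjusted p = 0.0235). Without day 28 pool 1, 2 or 3 it was 1.37, 1.22 and 1.35 and did not pass (limma adjusted p = 0.154, 0.235 and 0.137). Without day 84 pool 1 or 2 it was 1.15 and 1.58. Of the rise of CD cells, 13.4 percentage points between the means, Uro made up 3.72, or 27.8%. CD cells without Uro, as a share of the cells that were not Uro, were 14.8%, 13.1%, 18.5% and 15.1% at day 28 and 26.9% and 25.7% at day 84, and this share rose as well (0.98 in log2 odds, limma adjusted p = 0.0249).

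The inner medullary cluster IM-CD was 1.95%, 1.67%, 2.75% and 1.07% of all cells at day 28 and 3.35% and 6.45% at day 84, with no overlap. Its difference was 1.45 (standard error 0.485, limma adjusted p = 0.100), and it gave 3.04 of the 13.4 points. The day 84 pools differed from each other by more than the lower of them differed from the highest day 28 pool. The cluster deepIM-CD, from the papillary end of the duct, was 2.56%, 1.70%, 5.70% and 0.578% of all cells at day 28, which spanned its values of 4.27% and 4.04% at day 84 (limma adjusted p = 0.439). Its wide range at day 28 rested on pools 3 and 4.

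The outer medullary cluster OM-CD_a had the closest pools. It was 4.40%, 4.13%, 4.08% and 4.20% of all cells at day 28 and 6.68% and 6.57% at day 84. The gap between the times was several times the range within either, and the difference was 0.69 (standard error 0.172, 95% interval 0.26 to 1.13, limma adjusted p = 0.0709). OM-CD_b was 2.97%, 2.59%, 3.13% and 3.54% at day 28 and 4.75% and 3.63% at day 84 (0.47, limma adjusted p = 0.277). Its pools also did not overlap, although day 28 pool 4 and day 84 pool 2 were nearly equal. InjuredCD, the CD cluster named for injury, was 2.59%, 2.82%, 2.42% and 5.19% at day 28 and 5.93% and 3.65% at day 84 (limma adjusted p = 0.389). It was at most 0.0935% of cells in any control pool.

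Within the CD type the clusters kept closer proportions. Of 6 clusters, OM-CD_b was the 1 without overlap, and it was lower, at 17.5%, 17.5%, 15.3% and 19.6% of CD cells at day 28 and 14.8% and 12.2% at day 84 (-0.44, limma adjusted p = 0.449). OM-CD_b was thus higher among all cells and lower among CD cells. Uro was 11.7% to 19.3% of CD cells at day 28 and 22.3% and 18.2% at day 84 (0.58, 95% interval -0.33 to 1.50, limma adjusted p = 0.445). OM-CD_a was 19.9% to 28.0% and then 20.8% and 22.1%, IM-CD 5.90% to 13.4% and then 10.4% and 21.7%, and InjuredCD 11.8% to 28.7% and then 18.5% and 12.3% (limma adjusted p from 0.449 to 0.610). The inner medullary clusters together, deepIM-CD and IM-CD, were 9.10% to 41.3% of CD cells at day 28 and 23.7% and 35.2% at day 84 (limma adjusted p = 0.672).

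Of the 7 LOH clusters, ATL and OSOM-TAL_a were the 2 whose pools did not overlap between the times. ATL cells, the ascending thin limb of the inner medulla, were 7.05%, 5.78%, 9.59% and 4.56% of LOH cells at day 28 and 11.9% and 13.4% at day 84. Both day 84 pools were above all day 28 pools and below all control pools, which began at 25.7%. The difference was 1.05 (standard error 0.418, 95% interval 0.06 to 2.03, limma adjusted p = 0.133). As a share of all cells ATL was 2.72%, 2.11%, 3.57% and 1.86% at day 28 and 4.43% and 5.30% at day 84 (1.00, limma adjusted p = 0.100).

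OSOM-TAL_a, a thick ascending limb cluster of the outer stripe, went the other way in its values. It was 22.9%, 21.1%, 21.2% and 19.1% of LOH cells at day 28 and 9.50% and 13% at day 84. The day 28 pools were close together and the day 84 pools well below them, within the control range of 9.89% to 13.5% for pool 2 and just under it for pool 1. The difference was -1.09 (standard error 0.341, 95% interval -1.89 to -0.28, limma adjusted p = 0.0941), and edgeR gave an adjusted p of 0.0400. Of all cells, OSOM-TAL_a was 8.81%, 7.70%, 7.87% and 7.81% at day 28 and 3.55% and 5.16% at day 84 (-0.97, limma adjusted p = 0.0709). The second outer stripe cluster, OSOM-TAL_b, was 9.59% to 20.3% of LOH cells at day 28 and 18.4% and 28.7% at day 84 (0.90, limma adjusted p = 0.365), against at most 4.24% in a control pool.

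The ratio of cell numbers of 2 clusters does not depend on any other cluster, and among the 48 pairs within a cell type limma called 0 (0%), with 9 at an unadjusted p under 0.05 (18.8%), 3 of them higher (6.25%) and 6 lower (12.5%). In 15 of 48 pairs the pools did not overlap (31.2%). ATL cells numbered 0.309, 0.274, 0.453 and 0.239 per OSOM-TAL_a cell at day 28 and 1.25 and 1.03 at day 84. ATL was the rarer of the pair in all day 28 pools and the more common in both day 84 pools (log2 ratio 1.87 higher, standard error 0.483, limma adjusted p = 0.100). OSOM-TAL_a cells numbered 1.13, 1.16, 2.21 and 1.89 per OSOM-TAL_b cell at day 28 and 0.518 and 0.453 at day 84. This order was likewise turned in both day 84 pools (-1.66, standard error 0.506, limma adjusted p = 0.134).

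The remaining LOH clusters overlapped between the times. DTL, the descending thin limb, was 17.3% to 21.4% of LOH cells at day 28 and 20.9% and 23.8% at day 84, and IM-TL, a thin limb cluster of the inner medulla, 3.23% to 8.97% and then 7.28% and 6.61% (limma adjusted p = 0.525 for each). ATL, DTL and IM-TL together were 27.6%, 27.1%, 36.9% and 31.7% of LOH cells at day 28 and 40.0% and 43.7% at day 84. These inner medullary LOH cells were the 1 of 5 combined populations without overlap (20.0%). The difference was 0.70 (95% interval -0.06 to 1.46, limma adjusted p = 0.327), and it was 0.83 without day 28 pool 3 (limma adjusted p = 0.0364). Without day 28 pool 1, 2 or 4 it was 0.63, 0.62 and 0.72 and did not pass (limma adjusted p = 0.485, 0.623 and 0.559). Without day 84 pool 1 or 2 it was 0.81 and 0.59. Limma called 0 of the 5 combined populations (0%), with 0 at an unadjusted p under 0.05. EdgeR was not run on them. The inner stripe cluster ISOM-TAL, the salt-transporting thick limb next to the inner medulla, was 3.74% to 13.7% of LOH cells at day 28 and 3.74% and 8.19% at day 84 (limma adjusted p = 0.525).

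InjuredLOH, the loop cluster named for injury, varied more within each time than between them. It was 5.99%, 8.60%, 9.02% and 14.4% of all cells at day 28 and 10.6% and 2.54% at day 84, against at most 0.222% in a control pool. The lowest and the second highest of the 6 values were thus the 2 day 84 pools. The difference was -0.85 with a 95% interval of -2.63 to 0.93 (limma adjusted p = 0.439), and without day 84 pool 2 it was 0.25 (limma adjusted p = 0.870). The injured LOH and CD clusters together were 15.4%, 22.2%, 19.8% and 33.3% of LOH and CD cells at day 28 and 23.8% and 8.91% at day 84 (-0.70, limma adjusted p = 0.468).

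Within the endothelial cells the pools of the times did not overlap for Endo_a and Endo_b, and neither passed the threshold. Endo_b was 2.42%, 5.04%, 2.74% and 8.56% of endothelial cells at day 28 and 24.4% and 15.3% at day 84, against 7.18% to 10.6% in control pools. Both day 84 pools were above all day 28 and all control pools. The difference of 2.47 in log2 odds was the largest of the 23 within cell types (standard error 0.617, 95% interval 1.02 to 3.93, limma adjusted p = 0.0627). Endo_a, the main endothelial cluster, was 91.2%, 90.2%, 83.8% and 91.0% of endothelial cells at day 28 and 71.8% and 74.4% at day 84, with control pools from 59.8% to 71.1%. It was lower in both day 84 pools (-1.63, standard error 0.412, limma adjusted p = 0.0627). Of all cells, Endo_b was 0.246%, 0.549%, 0.333% and 0.950% at day 28 and 2.43% and 1.42% at day 84 (2.04, limma adjusted p = 0.100), and Endo_a 9.26%, 9.83%, 10.2% and 10.1% and then 7.13% and 6.92% (-0.53, limma adjusted p = 0.100).

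The endothelial differences were also taken without shallow cells and without single pools. Endo_a cells were among the shallowest, with 7.94% of them under 500 detected genes as the mean of the day 28 pools and 59.0% as that of the day 84 pools, while Endo_b had 0% and 6.15%. Among cells with at least 500 detected genes, the difference within the type was 3.70 for Endo_b and -2.55 for Endo_a (limma adjusted p = 0.00538 for each). This fixed floor took out a larger part of Endo_a than of Endo_b, above all at day 84, and so by itself moves the difference this way. Without the 20% of cells with the fewest UMIs of each pool it was 2.70 and -2.11 (limma adjusted p = 0.0496 and 0.0297). The median UMIs of Endo_a at day 84, 622 and 518, lay below the lower quartiles of the pools, 652 and 570. Those of Endo_b, 949 and 966, lay above them. How far this bears on the 2 differences was not tested. With all cells but without day 28 pool 4, the differences were 2.84 and -1.54 (limma adjusted p = 0.00106 and 0.0191). Without day 28 pool 3 Endo_a alone passed (-1.86, limma adjusted p = 0.0262). Neither cluster passed without day 28 pool 1 (limma adjusted p = 0.231 for each), day 28 pool 2 (0.230 for each), day 84 pool 1 (0.287 for each) or day 84 pool 2 (0.136 for Endo_b and 0.169 for Endo_a). With edgeR the differences were 2.08 for Endo_b and -0.29 for Endo_a (edgeR adjusted p = 0.140 for each). These edgeR values are log2 ratios of the shares and not log2 odds, so their size cannot be set against the limma values. Endo_a numbered 37.1, 17.8, 30.4 and 10.6 per Endo_b cell at day 28 and 2.94 and 4.85 at day 84 (-2.51, limma adjusted p = 0.100). The vasa recta cluster EndoVR/papilla was 0.646%, 0.521%, 1.64% and 0.0514% of all cells at day 28 and 0.379% and 0.961% at day 84 (limma adjusted p = 0.748), below the lowest control pool, 2.62%, in all 6 pools.

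Of the 4 proximal tubule clusters, 3 had pools that did not overlap within the type, and none passed the threshold with limma or edgeR. PT-S1S2 and PT-S2 are named for the early segments of the tubule, and the 2 PT-S3 clusters for the straight end segment that reaches the outer medulla. PT-S3_a was 18.5%, 17.0%, 14.0% and 38.3% of PT cells at day 28 and 51.1% and 41.5% at day 84. PT-S2 was 21.7%, 21.7%, 11.5% and 12.4% at day 28 and 3.51% and 8.50% at day 84. PT-S1S2 was 39.7%, 48.6%, 51.9% and 27.7% at day 28 and 25.1% and 18.1% at day 84. In these 3 clusters the pools of the times did not overlap, and day 28 pool 4 was the nearest to the day 84 pools for PT-S3_a and PT-S1S2.

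The differences within PT cells were 1.72 for PT-S3_a, -1.72 for PT-S2 and -1.38 for PT-S1S2, with limma adjusted p = 0.102, 0.0941 and 0.113. Without day 28 pool 4 they were 2.13, -1.87 and -1.68 and passed (limma adjusted p = 0.00243, 0.0179 and 0.0145), and none of the 3 passed without any other single pool. PT-S3_b, at 12.8% to 22.6% and then 20.2% and 31.9% of PT cells, overlapped. PT-S2 cells numbered 1.18, 1.28, 0.818 and 0.326 per PT-S3_a cell at day 28 and 0.0700 and 0.205 at day 84 (log2 ratio -2.73, standard error 0.734, limma adjusted p = 0.100). Per PT-S3_b cell they numbered 1.08, 1.69, 0.509 and 0.578 and then 0.176 and 0.267 (-1.98, limma adjusted p = 0.134). PT-S2 was scarce at day 84 in both ratios. The study describes the amount of outer medulla in the dissected tissue as variable, and how far this bears on the PT and OSOM-TAL shares was not tested.

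**Figure D3:**
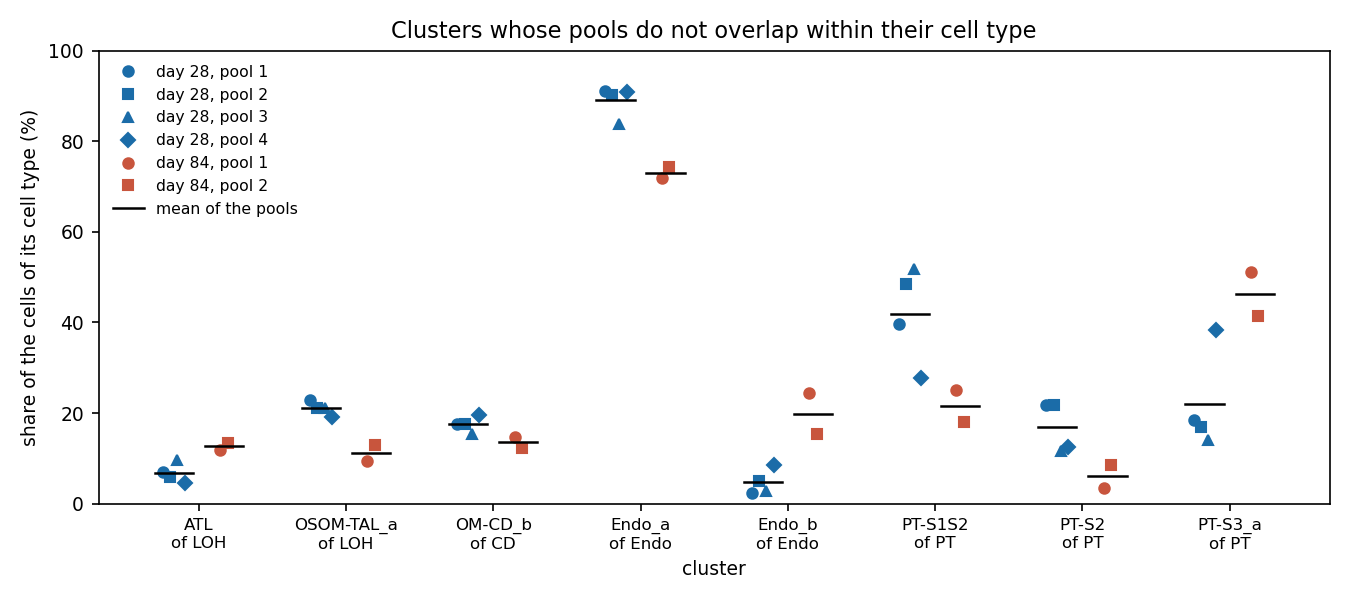
The share of the cells of its own cell type, in percent, is plotted for the 8 clusters whose pools do not overlap between the times, with 1 symbol per pool for day 28 (blue) and day 84 (red) and a black line at the mean of the pools. Endo_b sits between 2.42% and 8.56% of endothelial cells in the day 28 pools and at 24.4% and 15.3% in the day 84 pools, and for PT-S1S2 and PT-S3_a day 28 pool 4 (diamond) is the nearest to the day 84 pools.

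The interstitial clusters overlapped. MyoFib, the myofibroblasts, was 4.61%, 8.33%, 9.07% and 18.1% of all cells at day 28 and 9.69% and 5.62% at day 84 (-0.31, 95% interval -1.94 to 1.32, limma adjusted p = 0.705), and all 6 pools were above the highest control pool, 2.82%. The difference turned to 0.07 without day 28 pool 4 and to 0.11 without day 84 pool 2. Of the fibroblast lineage it was 70.0% to 89.5% at day 28 and 81.2% and 64.4% at day 84. The resident fibroblast cluster Fib was 14.1%, 8.13%, 17.7% and 3.07% of the lineage at day 28 and 9.83% and 25% at day 84 (0.93, limma adjusted p = 0.503), with control pools from 50.8% to 74.3%. Pericytes (Peri), which wrap small vessels, were 7.47% to 15.3% and then 9.02% and 10.7% (limma adjusted p = 0.610). Of all cells, pool 1 of day 84 was higher than pool 2 in MyoFib, InjuredLOH, InjuredCD and immune cells, and lower in Fib, ATL and IM-CD. Pool 1 was also higher in deepIM-CD (4.27% against 4.04%), IM-TL (2.72% against 2.62%), Uro and Endo_b. The largest log2 difference between these pools, 2.34, was in PT-S2, which was lower in pool 1.

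UMIs per cell were lower at day 84 in every cluster. In 25 of 25 clusters the median UMIs of both day 84 pools lay below those of all 4 day 28 pools, by 1.82-fold for EndoVR/papilla to 2.97-fold for OSOM-TAL_a, with a median of 2.31-fold. By the mean over pools ISOM-TAL cells had the most UMIs at both times, with medians of 6767, 6482, 6140 and 5030 at day 28 and 2968 and 2876 at day 84, although OM-CD_b was higher in day 28 pools 1 and 4 (7210 and 5394). EndoVR/papilla cells had the fewest, with 1538, 1005, 921 and 577 and then 568 and 482. Of the 25 clusters, 9 held the same rank at both times, 12 moved by 1 or 2 ranks and 4 by 3 or 4.

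**Figure D4:**
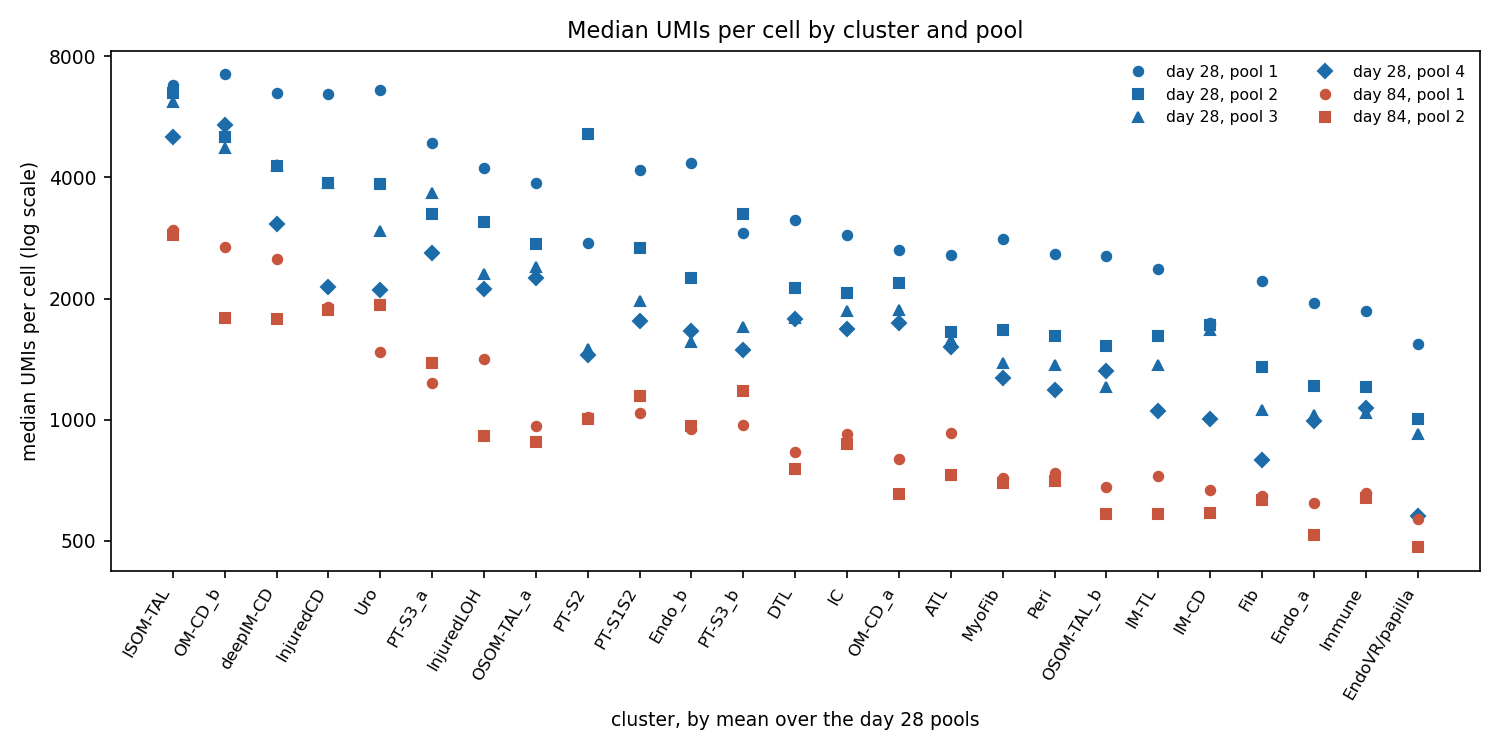
The median UMIs per cell on a log scale are plotted for each of the 25 clusters and each pool, for day 28 (blue) and day 84 (red), with clusters ordered by their mean over the day 28 pools. Every red symbol lies below every blue symbol of its cluster, from ISOM-TAL with 2968 and 2876 at day 84 to EndoVR/papilla with 568 and 482.

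Each cluster's median was therefore divided by the median of all cells of its pool. Of the 24 clusters with at least 20 cells in every pool, 20 were higher and 4 lower at day 84 by this measure, with a median log2 difference of 0.16. This split depended on the scaling, with 13 of 24 lower when the clusters' own median was the reference, 9 lower with means of log2 values and 10 of 23 lower among cells with at least 500 detected genes. EndoVR/papilla, with 8 cells in day 28 pool 4, was left out. Limma called 0 of 24 (0%), with 3 at an unadjusted p under 0.05 (12.5%), and in 7 of 24 the pools did not overlap (29.2%), all higher at day 84 (IM-TL turned to -0.04 with the clusters' own median as the reference). No other tool was run on these levels.

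The 7 clusters without overlap spanned several lineages. Immune cells had 0.563, 0.547, 0.560 and 0.685 times the UMIs of the pool at day 28 and 0.723 and 0.848 at day 84 (0.42 higher on the log2 scale, standard error 0.145, limma adjusted p = 0.329). Fib cells had 0.668, 0.612, 0.571 and 0.506 times and then 0.710 and 0.839 (0.40, limma adjusted p = 0.329). The deepIM-CD cells had 1.96, 1.93, 2.32 and 1.95 times and then 2.75 and 2.37 (0.33, limma adjusted p = 0.329). These 3 had the unadjusted p under 0.05.

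Of the other 4, Endo_a had 0.592, 0.548, 0.555 and 0.634 times the pool's UMIs at day 28 and 0.683 and 0.690 at day 84, and Peri 0.780, 0.733, 0.740 and 0.757 and then 0.808 and 0.940. ATL had 0.776, 0.747, 0.849 and 0.966 and then 1.01 and 0.970, and IM-TL 0.716, 0.731, 0.740 and 0.669 and then 0.797 and 0.778. For ATL the gap between day 28 pool 4 and day 84 pool 2 was 0.966 against 0.970. All 4 had limma adjusted p of 0.415 to 0.465. OSOM-TAL_a was lowest of the 24 in its difference, with 1.17, 1.24, 1.29 and 1.43 times at day 28 and 1.06 and 1.18 at day 84 (-0.20, limma adjusted p = 0.440).

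Detected genes, taken relative to the pool in the same way, were higher at day 84 in 20 of 24 clusters, with a median log2 difference of 0.15, while 8 were lower against the clusters' own median, 9 with means of log2 values and 12 of 23 among cells with at least 500 detected genes. Limma called 0 of 24 (0%), with 3 at an unadjusted p under 0.05 (12.5%), and the pools did not overlap in 7 of 24 (29.2%). The deepIM-CD cells had 1.43, 1.41, 1.66 and 1.66 times the detected genes of the pool at day 28 and 2.16 and 1.92 at day 84 (log2 difference 0.41, standard error 0.119, limma adjusted p = 0.166). With the control pools in the fit this cluster passed (limma adjusted p = 0.0193). ISOM-TAL cells had 1.44, 1.89, 2.11 and 2.14 times and then 2.35 and 2.65 (0.41, limma adjusted p = 0.266), and InjuredCD cells 1.63, 1.46, 1.68 and 1.31 times and then 1.82 and 2.05 (0.35, limma adjusted p = 0.266). In both clusters every day 84 pool was above every day 28 pool.

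ATL had 0.842, 0.820, 0.905 and 0.954 times the detected genes of the pool at day 28 and 1.03 and 1.02 at day 84, and IM-TL 0.814, 0.789, 0.806 and 0.740 and then 0.839 and 0.844. Endo_a had 0.663, 0.606, 0.612 and 0.671 and then 0.703 and 0.710. Of the 7 clusters without overlap OSOM-TAL_a alone was lower, which made 1 of 24 tested (4.17%), at 1.12, 1.15, 1.19 and 1.30 and then 1.04 and 1.10 (-0.15, limma adjusted p = 0.367). PT-S2 and PT-S3_b passed without day 28 pool 2 (0.59 and 0.53, limma adjusted p = 0.00957 and 0.0167). In that pool they had 1.52 and 1.18 times the pool's detected genes, more than in any other day 28 pool. The same held for their UMIs, at 2.32 and 1.47 times those of the pool.

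**Figure D5:**
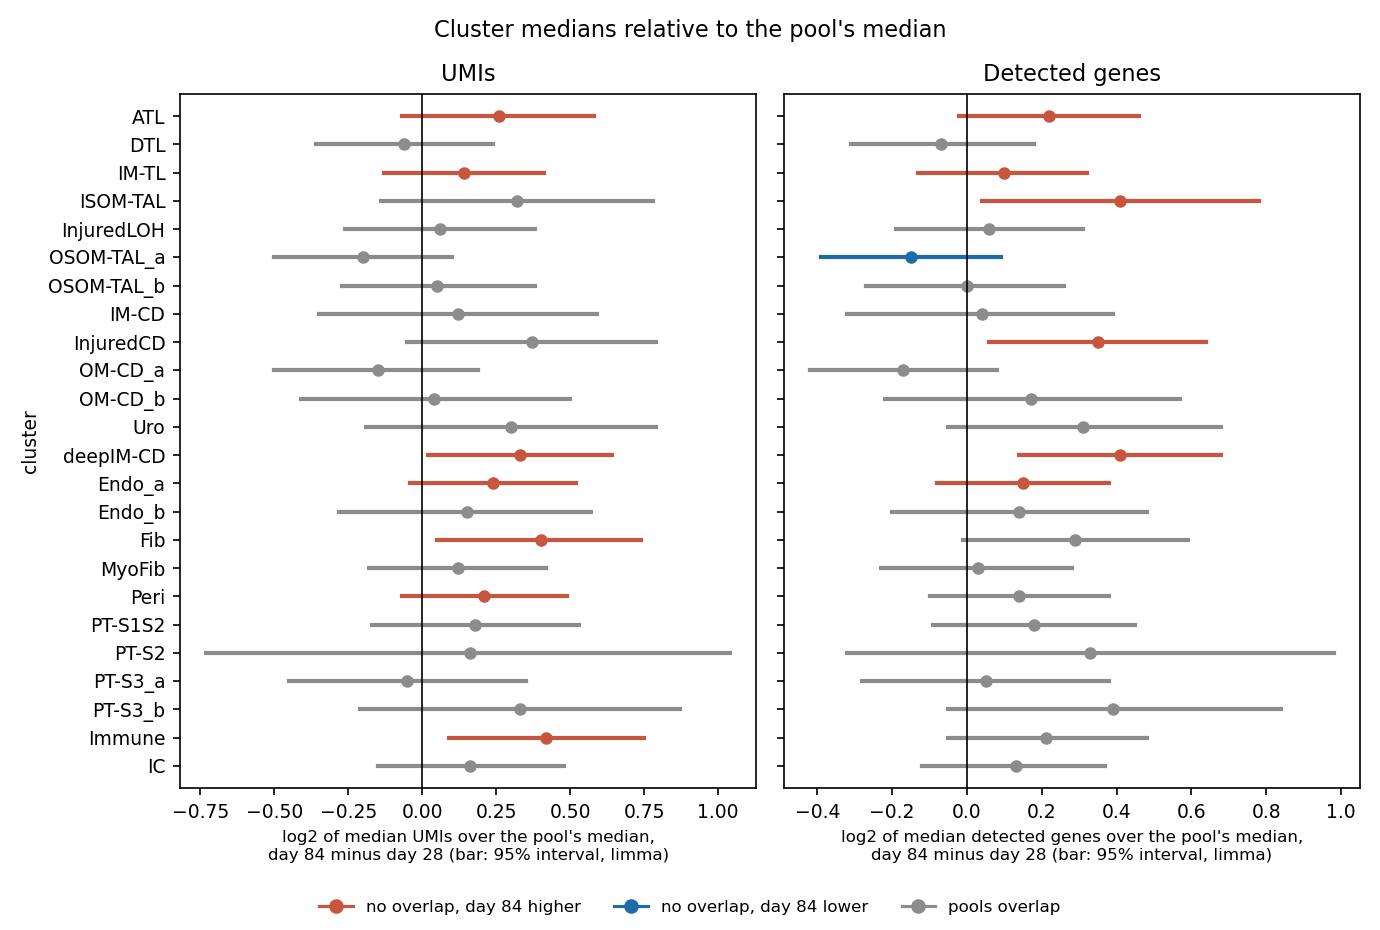
The log2 difference between day 84 and day 28 in the cluster's median relative to its pool's median is plotted for UMIs (left) and detected genes (right) in 24 clusters, with a bar for the 95% interval from limma, red or blue where the pools do not overlap. For UMIs, 20 of 24 clusters lie above 0 in this scaling (11 of 24 against the clusters' own median), up to 0.42 for immune cells, and for detected genes the highest are deepIM-CD and ISOM-TAL with 0.41.

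Since cells with more UMIs show more genes, detected genes were also compared among cells with 750 to 1500 UMIs. In 10 of 14 clusters with enough such cells (71.4%), detected genes fell at day 84 (limma adjusted p under the threshold), by 0.14 for ATL to 0.40 for OSOM-TAL_b on the log2 scale. In that window, however, the day 84 cells had median UMIs of 981 and 984 and the day 28 cells of 1116 to 1172. With each cluster set to 1000 UMIs along a line fitted within the window, limma called 2 of 14 clusters. Immune cells then had fewer detected genes at day 84 (log2 difference -0.14, standard error 0.0275, limma adjusted p = 7.16e-04), and PT-S3_b cells had more (0.16, standard error 0.0320, limma adjusted p = 7.49e-04). ATL, which was lower in the plain window, differed by 0.05 there (limma adjusted p = 0.237). The narrow window of 900 to 1100 UMIs left 6 clusters with enough cells. Limma called 0 of them, with 1 at an unadjusted p under 0.05. Immune cells were among the 6 (-0.12, limma adjusted p = 0.104), and PT-S3_b was not.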

How the data were processed

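Fixed cells of pooled mouse renal medullas were measured with the 10x Genomics Flex probe assay. Per the labels the submitters used Cell Ranger 7.1 and build mm10; the authors kept cells with at least 300 detected genes and at most 10% mitochondrial reads, used SoupX against ambient RNA and scDblFinder against doublets, with integration and clustering in Seurat. The authors deposited per cell a corrected UMI count (whole at both times, an expected count with fractions in 1 control pool), the detected genes as a count, a mitochondrial percent, and pool, cell type and cluster. Of the analysed cells, 22 had fewer than 300 detected genes. Doublets were not called again.

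Cells were counted per pool and cluster. Shares were taken as log2 odds, with 0.5 cells added to either part, and tested with limma 3.58.1 (lmFit, eBayes; R 4.3.3), 4 pools against 2, two-sided, with Benjamini-Hochberg adjustment over the whole set of clusters, types or pairs, at a threshold of 0.05. Exact permutation tests over the 15 arrangements of pools stood beside it. UMI and gene medians were compared on the log2 scale in clusters with at least 20 cells per pool. The limma fits of cluster shares and of relative UMIs and detected genes were tested on simulated data, with the same spread for every cluster. Cell type shares, combined populations, pair ratios and detected genes in the UMI window were not simulated. No source used here gives the droplet runs, and p-values measure only the spread between these pools. All clusters were accounted for. Every pool is given for clusters past the threshold or without overlap between times, and of the pair ratios the 5 with the lowest adjusted p are named; for the 10 called in the UMI window, whose depth differed between times, only the range is given. The members and lists were chosen with earlier results of these data known. Alternatives were other transforms, edgeR 4.0.16, cell filters, denominators, UMI windows, the control pools in the fit and leaving out each pool. Shares of small clusters carry counting error, since the smallest cluster held 8 cells in 1 pool (EndoVR/papilla, day 28 pool 4).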

Additional observations from a re-analysis of the deposited data

Results flagged for a closer look

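Sets of 4 day 28 values were looked at, among them cluster shares of all cells and within cell types, and relative UMIs and detected genes. In 9 of 100 such sets, 1 pool lay far from the other 3 by Dixon's test at 95%, where chance gives about 5. The sets share cells and are not independent of each other. Pool 1 had an OSOM-TAL_a share of 8.81% of all cells, against 7.70% to 7.87%. Pool 4 had an InjuredCD share of 5.19% of all cells, against 2.42% to 2.82%. Pool 3 had an Endo_a share of 83.8% of endothelial cells, against 90.2% to 91.2%. DTL cells of pool 4 had 1.13 times the UMIs and 1.13 times the detected genes of their pool, against 0.948 to 0.965 and 1.00 to 1.01. Immune cells of pool 4 had 0.685 times the pool's UMIs, against 0.547 to 0.563. The deepIM-CD cells of pool 3 had 2.32 times the pool's UMIs, against 1.93 to 1.96. In pool 2, PT-S2 cells had 2.32 times the pool's UMIs, against 0.808 to 0.925, and PT-S3_b cells 1.47 times, against 0.880 to 0.949.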

How the results depend on the processing

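The number of called clusters moved with the test and with single pools. For shares of all cells it went from 0 to 4 with the arcsine square root, 4 with edgeR on cell numbers (0 with TMM factors) and 2 with the control pools in the fit, and lay between 0 and 3 when a pool was left out. For shares within cell types it went from 0 to 2 with the arcsine, 1 with edgeR, 4 with the control pools, 2 with at least 500 detected genes, 2 without the 20% of cells with the fewest UMIs and 5 when adjusted within each cell type, and lay between 0 and 5 without single pools. Without day 28 pool 4, 3 and 5 clusters were called. For cell types the count of 1 lay between 0 and 2 without single pools, and for the combined populations between 0 and 2. The pair ratios had 1 call with at least 500 detected genes, 3 with the control pools and 0 to 3 without single pools. Relative UMIs had 0 calls in all 12 alternatives, and relative detected genes 1 with the control pools and 0 to 2 without single pools. Detected genes in the UMI window depended on it: against 10 calls there were 4 at 500 to 1000 UMIs, 7 at 1000 to 2000 UMIs (3 of them outside the 10, namely DTL, Peri and IC), 6 with at least 50 cells, 7 to 10 without single pools and, chosen after seeing the data, 8 relative to the pool in the same window (2 of them higher and outside the 10), 2 at a set 1000 UMIs (1 of them, PT-S3_b, outside the 10) and 0 at 900 to 1100 UMIs. Relative to the pool in the same window ATL turned to 0.01, and at a set 1000 UMIs ATL turned to 0.05, IM-TL to 0.03 and InjuredLOH to 0.02; the cells' position within the window differed between times as given above. None of the cluster shares without overlap changed direction under any alternative. For leaving out a pool this was fixed in advance, since without overlap both day 84 pools lie on the same side of all day 28 pools. MyoFib (0.11) and EndoVR/papilla (-0.45) were among the overlapping clusters that changed direction when 1 pool was left out. No paired analysis was possible because the pools of the times came from different mice and their numbers only name them. Leaving out a day 84 pool leaves 1, which is assumed to vary like the day 28 pools.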
